A study of Mus musculus with 114 samples.

Results

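The MHC class II genes are the genes whose products build, chaperone and load the class II antigen-presenting molecule, and 8 of them were followed across the adipocyte fraction of mouse perigonadal fat. They were taken by symbol from the 29132 genes of the expression table: the class II chains H2-Aa, H2-Ab1 and H2-Eb1, the invariant chain Cd74, the peptide exchange chains H2-DMa, H2-DMb1 and H2-DMb2, and the coactivator Ciita. The rule used no measured value, but the members were chosen with earlier results of these data known. Every mouse was a male of the C57BL/6 strain (bought as C57BL/6J), and the methods name no transgene or engineered deletion. From 6 weeks of age the mice received either a high fat diet (HFD, a purified diet with most of its energy from fat) or a control chow diet (CD), for 8, 20 or 34 weeks. The groups held 6 CD and 6 HFD mice at 8 weeks, 6 and 6 at 20 weeks, and 8 and 6 at 34 weeks, 38 mice in all. The study asked how the fat pad and its cell fractions are remodelled by diet and by time, and the comparisons it implies are HFD against CD at each time and the later against the earlier times on each diet. The methods name a pair of chow recipes without saying which mice had which, so a difference between recipes cannot be told apart from the groups here.

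Adipocytes were taken as the cells that float after collagenase digestion, a separation by buoyancy without sorting, and polyA RNA of each mouse was sequenced as 3 technical replicates that had been merged into 1 column per mouse. Values are CPM, the reads of a gene per 1000000 reads assigned to genes. Reads per mouse numbered between 9275711 and 15480388, so that 1 read was worth between 0.0646 and 0.108 CPM. The fraction carried its adipocyte label: Adipoq, the adipocyte hormone adiponectin, stood between 2068 and 6653 CPM in the 38 mice. No mouse was left out. Tests were made with limma on log2(CPM + 1) in 1 fit of all 6 groups, and "adjusted p" below means that p after Benjamini-Hochberg adjustment over 10343 genes whose mean log2(CPM + 1) was above 2.0. A gene is said to have risen or fallen where that value was under 0.05, and of the members all but H2-DMb2 passed the filter on the mean, which does not use the groups. These are bulk samples, in which more class II RNA per cell and more cells that make class II cannot be told apart.

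As background, the class II molecule is a pair of membrane chains, alpha and beta, that displays peptides from the endosome to CD4+ T cells. H2-Aa and H2-Ab1 encode the alpha and beta chain of the I-A molecule. H2-Eb1 encodes the beta chain of the I-E molecule, whose alpha chain gene is broken in C57BL/6 mice, so that no I-E reaches the cell surface in this strain. Cd74, the invariant chain, occupies the peptide groove and guides the new molecule to the endosome, where cathepsins trim it. H2-DM, made of H2-DMa with either H2-DMb1 or H2-DMb2, then exchanges the remnant for peptide. Ciita, the coactivator on which class II transcription depends, does not touch DNA. It is held at the promoter by RFX on the X box, CREB on the neighbouring CRE-like site and NF-Y on the Y box. Dendritic cells, macrophages and B cells are the usual class II-positive cells, and interferon gamma can switch the genes on in many others, adipocytes included.

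The promoter letters are shown because these elements tie the members together. The search used RefSeq promoter windows (GRCm38.p6) of 5 members and left out the other 3. The 150 bases before the start were searched on both strands for 3 motifs. These were an X box core (AG, 2 free bases, AC, 1 free base, GATG), the CRE (TGACGTCA) and a Y box core (GATTGG). The Y box core contains the reversed CCAAT box. Matches are in capitals, each window reads 5′ to 3′ on the strand of its gene, and positions count back from the base before the start.
H2-Aa, chr17:34287824-34287973, minus strand: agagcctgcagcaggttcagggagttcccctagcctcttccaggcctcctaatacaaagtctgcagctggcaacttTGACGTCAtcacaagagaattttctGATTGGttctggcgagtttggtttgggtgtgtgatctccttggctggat
H2-Eb1, chr17:34305717-34305866, plus strand: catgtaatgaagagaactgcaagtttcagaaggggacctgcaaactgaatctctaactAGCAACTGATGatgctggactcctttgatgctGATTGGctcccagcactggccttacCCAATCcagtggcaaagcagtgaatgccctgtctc
H2-DMb1, chr17:34153041-34153190, plus strand: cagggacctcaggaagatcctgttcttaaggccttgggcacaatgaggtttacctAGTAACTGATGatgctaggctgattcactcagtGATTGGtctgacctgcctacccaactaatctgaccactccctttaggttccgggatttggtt
H2-DMb2, chr17:34145099-34145248, plus strand: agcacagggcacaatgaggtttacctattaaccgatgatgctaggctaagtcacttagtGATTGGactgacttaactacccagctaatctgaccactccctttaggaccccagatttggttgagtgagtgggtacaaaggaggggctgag

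In H2-Eb1 the X box core began at -92 and the Y box core at -60, and in H2-DMb1 they began at -95 and -62. H2-Aa held a CRE from -74 to -67 and a Y box core from -49 to -44, without an exact X box core. H2-DMb2 held the Y box core from -91 to -86 alone. Its closest window to the X box core, at -124, carried the single substitution G2T, counted from 1 at the first base of the core with the searched base first. For H2-DMa the windows searched ended at 34122831 and 34125517 and held none of the 3 motifs. The annotated span of H2-DMa begins before both, at 34119693, and the bases before that position were not searched. Among 32851 promoter windows of the same length, 0.444% held the X box core, 1.36% the CRE, 10.9% the Y box core, and 0.0548% (18 windows) the X and Y box cores together. With at most 1 mismatch, on the forward strand, the X box core was in 5.22% of them. A match is a string of letters and not evidence of binding, and the lack of one says only that these letters are not in this window.

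On the genome (GRCm38), H2-DMa (chr17:34119693-34139101), H2-DMb2 (chr17:34143229-34151553), H2-DMb1 (chr17:34153191-34160229), H2-Ab1 (chr17:34263227-34269418), H2-Aa (chr17:34282744-34287823) and H2-Eb1 (chr17:34305867-34316674) lie in this order in the class II region of chromosome 17. Cd74 lies on chromosome 18 and Ciita at chr16:10480014-10531064. Gene counts were taken over the exons of each gene. H2-DMa shares 3094 bases of its span with Brd2 and Ciita shares 25888 with Dexi, both on the opposite strand, and whether the counting used the strand is not given in the sources used here. The coding sequences of H2-DMb1 and H2-DMb2 are 783 bases each and agree at 751 of them (95.9%), so reads of this pair may have been assigned with less certainty than the others.

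Compared per kilobase of exon over all mice, Cd74 had the highest level, 490.3 CPM per kb on average, followed by H2-Eb1 at 169, H2-Aa at 131, H2-Ab1 at 112, H2-DMb1 at 23.9, H2-DMa at 8.14, Ciita at 0.797 and H2-DMb2 at 0.399. Each step of this order held in every mouse for 5 of the 7 neighbouring pairs. The exceptions were H2-Aa over H2-Ab1, which held in 36 of 38 mice, and Ciita over H2-DMb2, which held in 24 of 38. The chains and their chaperone were thus far more abundant than the exchange factor and the coactivator. Per kb, H2-Eb1, whose partner chain is missing in this strain, stood above both I-A chains. Its place above H2-Aa rests on the length used, the union of all annotated exons, 3798 bases for H2-Aa and 1944 for H2-Eb1. In CPM, without division by length, H2-Aa had the higher mean in every group, from 92.7 against 64.5 in CD mice at 8 weeks to 1278 against 854 in HFD mice at 34 weeks. Together the 8 genes took 0.0375% ± 0.0187 of all assigned reads in CD mice at 8 weeks (SD, n = 6) and 0.515% ± 0.263 in HFD mice at 34 weeks (SD, n = 6).

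The I-A alpha chain H2-Aa ran from 45.5 to 143 CPM in CD mice at 8 weeks, with a median of 90.9, and from 176 to 575 CPM in HFD mice, with a median of 359. At 20 weeks the CD mice spanned 98.0 to 364 CPM (median 155) and the HFD mice 514 to 1227 CPM (median 691). At 34 weeks CD mice reached from 84.5 to 600.2 CPM (median 310.1), and HFD mice from 403 to 1909 CPM (median 1481). The diet groups did not overlap at 8 or 20 weeks and overlapped at 34 weeks. H2-Aa rose with HFD at each time, by 1.97 ± 0.44 (log2 difference ± SE, adjusted p = 0.0006984), 2.05 ± 0.44 (adjusted p = 0.0001983) and 1.91 ± 0.41 (adjusted p = 0.0005832), or 3.91-, 4.13- and 3.75-fold.

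The I-A beta chain H2-Ab1 stood between 24.6 and 77.6 CPM in CD mice at 8 weeks (median 48.4) against 106 to 331 CPM in HFD mice (median 219.8). The corresponding ranges at 20 weeks were 50.1 to 196 CPM (median 82.2) and 303 to 677 CPM (median 390.2). At 34 weeks they were 43.9 to 439.6 CPM (median 166) and 238 to 1077 CPM (median 841). The pattern followed that of its partner chain, with the diets apart at 8 and 20 weeks and overlapping at 34. The log2 difference was 2.11 ± 0.45 at 8 weeks (adjusted p = 0.0004604), 2.16 ± 0.45 at 20 weeks (adjusted p = 0.0001417) and 1.83 ± 0.42 at 34 weeks (adjusted p = 0.00103).

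The I-E beta chain H2-Eb1 spanned 32.1 to 99.4 CPM in CD mice at 8 weeks (median 63.3) and 126 to 379.9 CPM in HFD mice (median 264). At 20 weeks it spanned 68.1 to 241 CPM (median 104) in CD and 346 to 779.5 CPM (median 437) in HFD mice. At 34 weeks it spanned 57.1 to 398 CPM (median 185) and 234 to 1342 CPM (median 982). Its groups overlapped and separated at the same times as those of the I-A chains. H2-Eb1 rose by 2.00 ± 0.45 (adjusted p = 0.0006584), 1.98 ± 0.45 (adjusted p = 0.0003347) and 1.93 ± 0.42 (adjusted p = 0.0005832).

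Cd74, the invariant chain, ranged from 79.5 to 236 CPM in CD mice at 8 weeks (median 154) and from 325 to 911 CPM in HFD mice (median 629). At 20 weeks CD mice held 164 to 581 CPM (median 268) and HFD mice 884 to 1921 CPM (median 1141). At 34 weeks CD mice held 129.9 to 1087 CPM (median 522) and HFD mice 637 to 3187 CPM (median 2447). At 34 weeks 2 of the 6 HFD mice, numbers 5 and 6 with 637 and 895 CPM, lay inside the CD range, and the other 4 held 2076 CPM or more. Cd74 rose by 2.01 ± 0.45 at 8 weeks (adjusted p = 0.0006961), 1.99 ± 0.45 at 20 weeks (adjusted p = 0.0003385) and 1.89 ± 0.42 at 34 weeks (adjusted p = 0.0007513), or 4.02-, 3.98- and 3.69-fold.

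H2-DMb1, a beta chain of the peptide exchange factor, had the largest diet differences of the tested members at 8 and 20 weeks. It ranged from 2.11 to 7.06 CPM in CD mice at 8 weeks (median 3.69) against 9.47 to 70.7 CPM in HFD mice (median 26.2). At 20 weeks it ranged from 5.00 to 24.6 CPM (median 7.21) against 41.3 to 80.7 CPM (median 62.9), and at 34 weeks from 4.57 to 55.5 CPM (median 41.0) against 67.1 to 139.5 CPM (median 104). It was the only tested member whose diet groups did not overlap at any of the 3 times. The differences were 2.46 ± 0.48 (adjusted p = 0.0001483), 2.67 ± 0.48 (adjusted p = 1.752e-05) and 1.78 ± 0.44 (adjusted p = 0.001998).

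H2-DMa, the alpha chain of the same factor, spanned 3.18 to 8.43 CPM (median 5.76) in CD mice and 10.96 to 34.3 CPM (median 23.7) in HFD mice at 8 weeks. At 20 weeks the ranges were 3.24 to 16.4 CPM (median 8.01) and 25.6 to 52.6 CPM (median 32.4), and at 34 weeks 7.53 to 54.2 CPM (median 22.2) and 35.4 to 107 CPM (median 70.6). H2-DMa rose by 1.77 ± 0.38 (adjusted p = 0.0004239), 2.00 ± 0.38 (adjusted p = 3.822e-05) and 1.47 ± 0.35 (adjusted p = 0.001401), the last being the smallest diet difference of any tested member.

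The second beta chain gene, H2-DMb2, was at the edge of detection, with 339 reads over all 38 mice against 19375 for H2-DMb1. Its medians in CD mice were 0.419, 0.184 and 0.633 CPM at 8, 20 and 34 weeks, and those in HFD mice 1.12, 0.686 and 1.01 CPM. The lowest and highest single values were 0 CPM, in 1 CD mouse each at 20 and 34 weeks, and 2.10 CPM in an HFD mouse at 8 weeks. A count of 0 allows up to 0.223 and 0.254 CPM in those mice (3 reads, counting error only). H2-DMb2 was not among the tested genes. In a fit without the filter on low values, over 21166 genes, its difference was 0.61 ± 0.18 at 8 weeks (adjusted p = 0.01001), 0.50 ± 0.18 at 20 weeks (adjusted p = 0.02503) and 0.25 ± 0.16 at 34 weeks (adjusted p = 0.3059). On the log2(CPM + 1) scale such low values understate the fold change.

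Ciita, the coactivator, was the scarcest tested member. At 8 weeks it ranged from 0.352 to 2.22 CPM in CD mice (median 0.928) and from 3.02 to 11.9 CPM in HFD mice (median 5.66). At 20 weeks it ranged from 0.662 to 3.71 CPM (median 1.46) and from 7.12 to 13.2 CPM (median 9.75), and at 34 weeks from 1.27 to 11.1 CPM (median 7.57) and from 8.07 to 33.5 CPM (median 21.7). Ciita thus rose with HFD along with the genes it serves, by 1.69 ± 0.39 (adjusted p = 0.001018), 2.11 ± 0.39 (adjusted p = 3.346e-05) and 1.68 ± 0.37 (adjusted p = 0.0006587). With CD values near 1 CPM at 8 and 20 weeks, the log2(CPM + 1) scale understates these fold changes. Under the 10 alternatives the difference ranged from 0.87 to 2.33 at 8 weeks, 0.98 to 2.38 at 20 weeks and 0.85 to 1.90 at 34 weeks.

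Counted together, 7 of 7 tested members rose with HFD at 8 weeks, where 44.9% of all tested genes were called and 29.8% rose. The count was again 7 of 7 at 20 weeks (57% called, 38.3% rose) and at 34 weeks (43.2% called, 27.5% rose). The members' median log2 difference was 2.00, 2.05 and 1.83 at the 3 times, beside medians over all tested genes of 0.11, 0.14 and 0.07. No overlap between the diets, with HFD above CD, was found for 7 of 7 members at 8 weeks (15.7% of all tested genes) and at 20 weeks (26.1%), and for H2-DMb1 alone at 34 weeks (1.47%). Rescaling the libraries by TMM or by median-of-ratios size factors left all 7 rises at each time, although it lowered the share of rises among all called genes, for example at 20 weeks from 67.1% to 44.7% and 49.5%.

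**Figure D1:**
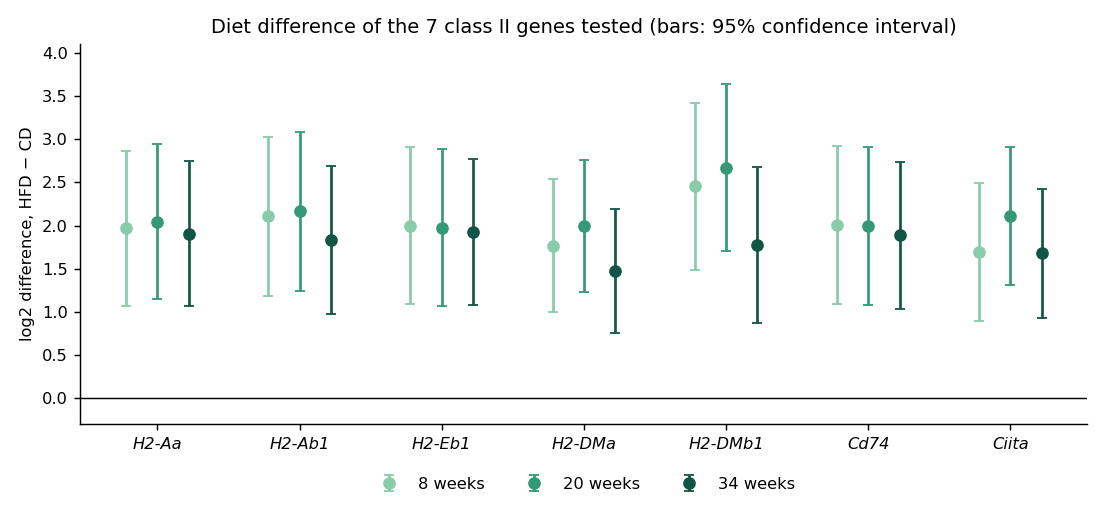
Log2 difference between HFD and CD with its 95% confidence interval for the 7 tested members (x axis) at 8, 20 and 34 weeks, from the limma fit on log2(CPM + 1). All 21 intervals lie above 0, from a lowest estimate of 1.47 for H2-DMa at 34 weeks to a highest of 2.67 for H2-DMb1 at 20 weeks.

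The spread at 34 weeks was wide on both diets. The summed level of the 8 genes was 2302, 2393, 782, 809, 2506, 329, 1535 and 953 CPM in CD mice 1 to 8, and 7313, 4968, 7550, 7124, 1631 and 2332 CPM in HFD mice 1 to 6. HFD mice 5 and 6 were within the CD range, and CD mouse 6 was well under its group. The summed level of 11 macrophage markers was 9761 CPM in HFD mouse 5, against 7239 CPM in HFD mouse 1, whose class II sum was among the highest. In HFD mouse 6 it was 4994 CPM, the lowest of that group. Over all 38 mice the deviations of these markers from their group means correlated with those of the class II chains at r = 0.823. Leaving out any single mouse kept all 7 members called in each diet comparison. A fit that weights each mouse by its deviation from its group, in which HFD mouse 5 had a weight of 2.70 and CD mouse 6 one of 0.212, called 3 of 7 at 34 weeks (4103 of all 10343 tested genes called). In that fit H2-Aa differed by 1.01 (adjusted p = 0.06213), H2-Ab1 by 1.00 (adjusted p = 0.06544), H2-Eb1 by 1.01 (adjusted p = 0.07195) and Cd74 by 0.94 (adjusted p = 0.08786).

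Over time, the members also climbed on chow. Between 8 and 34 weeks on CD 7 of 7 rose (64.7% of tested genes called, 40.1% rose), with log2 differences from 1.56 ± 0.37 for Ciita (adjusted p = 0.0004561) to 2.60 ± 0.44 for H2-DMb1 (adjusted p = 8.518e-06). With the macrophage covariate described below 1 of 7 passed (5345 of all 10343 tested genes called in that fit), H2-DMb1 with 1.01 (adjusted p = 0.03879). Between 8 and 20 weeks limma called 0 of 7 and edgeR 0 of 7 (3.58% of tested genes called by limma), though 5 had an unadjusted p under 0.05. Those 5 were H2-Aa, H2-Ab1, H2-Eb1, H2-DMb1 and Cd74, with differences from 1.02 to 1.08, while those of H2-DMa and Ciita were 0.45 ± 0.38 and 0.30 ± 0.39. Between 20 and 34 weeks on CD 3 of 7 rose (62.5% called, 41.1% rose): H2-DMa by 1.46 ± 0.35 (adjusted p = 0.000629), H2-DMb1 by 1.58 ± 0.44 (adjusted p = 0.002682) and Ciita by 1.26 ± 0.37 (adjusted p = 0.003613). The chains and Cd74 differed by 0.68 to 0.94 over that interval and did not pass, H2-Ab1 being nearest (adjusted p = 0.05301). This split rested on CD mouse 6 at 34 weeks, without which 7 of 7 passed.

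On HFD, 7 of 7 rose between 8 and 34 weeks (52.5% called, 31.7% rose), from 1.55 ± 0.39 for Ciita (adjusted p = 0.001426) to 1.92 ± 0.48 for H2-DMb1 (adjusted p = 0.001085). With the mouse weights 3 of 7 passed (5975 of all 10343 tested genes called in that fit). With the macrophage covariate described below 0 of 7 passed in limma, with 0 at an unadjusted p under 0.05 (1844 of all 10343 tested genes called in that fit). For H2-DMa the lowest HFD mouse at 34 weeks, 35.4 CPM, was above the highest at 8 weeks, 34.3 CPM (16.4% of all tested genes were apart in this way). Between 8 and 20 weeks 2 of 7 rose (36.5% called, 21.2% rose), H2-Aa by 1.16 ± 0.44 (adjusted p = 0.03756) and H2-DMb1 by 1.24 ± 0.48 (adjusted p = 0.04035). Both lay near the threshold, and the count fell to 0 without any 1 of HFD mice 1, 2 or 5 at 8 weeks or 1, 5 or 6 at 20 weeks. It was 1 without HFD mouse 2 or 3 at 20 weeks, and 4 without HFD mouse 3 or 4 at 8 weeks. Between 20 and 34 weeks limma called 0 of 7 (30.2% called) and edgeR 1. The count at an unadjusted p under 0.05 was 2, H2-DMa with 0.94 ± 0.38 and Ciita with 0.83 ± 0.39. It became 2 called without HFD mouse 6 at 34 weeks, and 1 without HFD mouse 5 at 34 weeks or HFD mouse 5 at 20 weeks.

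Whether the diet difference itself changed with time was tested as an interaction. By limma 0 of 7 members differed between 20 and 8 weeks (4.49% of tested genes called), 0 of 7 between 34 and 20 weeks (10.5%) and 0 of 7 between 34 and 8 weeks (28.8%). The counts at an unadjusted p under 0.05 were 0 in each, and edgeR also called 0 in each. For Cd74 the change from 8 to 20 weeks was -0.01 (95% interval -1.30 to 1.28), and for H2-DMb1 the change from 20 to 34 weeks was -0.89 (95% interval -2.21 to 0.43). The 21 intervals each hold changes of more than 1 log2 unit in at least 1 direction, so equal differences at the 3 times were not shown. With the mouse weights described above, 2 of 7 passed between 34 and 20 weeks and 4 of 7 between 34 and 8 weeks. That fit called 3407 and 4106 of all 10343 tested genes, against 1089 and 2982 in the main fit.

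Within groups the members moved together to different degrees. After the group means were taken away, H2-Aa and H2-Eb1 correlated at r = 0.993 over the 38 mice, and their log2 difference had an SD of 0.09 within groups. The deviations of Cd74 correlated at r = 0.992 with the mean of the 3 chains, those of H2-DMa at r = 0.949, of H2-DMb1 at r = 0.856 and of Ciita at r = 0.804. The log2 difference between H2-Aa and H2-DMb1 had an SD within groups of 0.45, and that between H2-Aa and Ciita one of 0.46. These correlations share the library scaling of each mouse and the counting error of the scarcer genes, and they are given as a description.

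None of the 5 tested neighbours of the members on chromosome 17 rose with HFD at any time. Brd2, a bromodomain protein whose span overlaps that of H2-DMa, fell by 0.56 at 8 weeks (SE 0.16, adjusted p = 0.006087) and differed by 0.00 and 0.12 at 20 and 34 weeks. Tap1, a subunit of the peptide pump for class I, fell by 0.68 at 8 weeks (SE 0.19, adjusted p = 0.004208) and by 0.89 at 20 weeks (SE 0.19, adjusted p = 0.0001461), and differed by 0.06 at 34 weeks (adjusted p = 0.8141). Its partner Tap2 and the immunoproteasome subunits Psmb8 and Psmb9 passed the test at none of the 3 times, with differences from -0.28 for Psmb9 at 20 weeks to 0.47 for Psmb8 at 34 weeks. Of the other class II genes of the region, H2-Oa and H2-Ob (the inhibitor of H2-DM), H2-Eb2 and the broken I-E alpha gene were all under the filter, and their summed level was at most 2.65 CPM in any mouse.

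**Figure D2:**
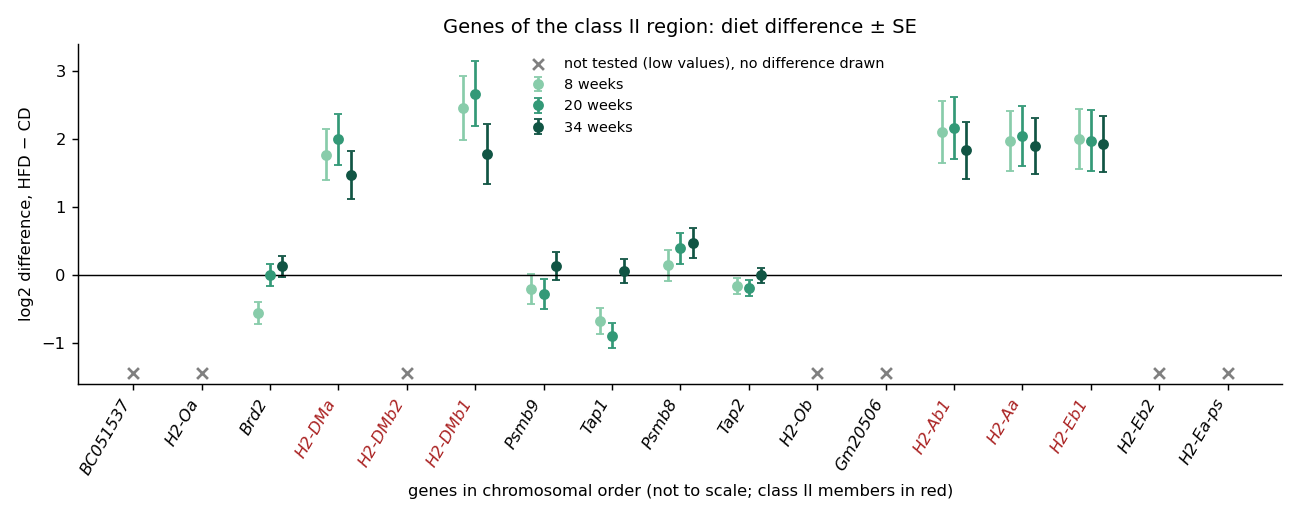
Log2 difference between HFD and CD (± SE) for genes of the class II region of chromosome 17 in their chromosomal order, not to scale, at 8, 20 and 34 weeks, with members in red and genes under the filter as crosses along the bottom. The tested members lie between 1.47 and 2.67, and the 5 tested neighbours between -0.89 and 0.47.

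Of the factors that bind the class II promoter (RFX, NF-Y and CREB) and the acetyltransferases Crebbp and Ep300, which work with them as coactivators, 9 genes were tested. With HFD 1 rose and 3 fell at 8 weeks (0 and 4 after TMM or median-of-ratios scaling), 3 rose and 2 fell at 20 weeks, and 3 rose and 0 fell at 34 weeks, with median differences of -0.25, 0.09 and 0.18. Of all tested genes 29.8% rose and 15.1% fell at 8 weeks, 38.3% and 18.7% at 20 weeks, and 27.5% and 15.7% at 34 weeks. The counts at 20 weeks were near these shares. Rfx5, the DNA-binding subunit of RFX, had a mean of 32.0 CPM in CD mice and 16.7 CPM in HFD mice at 20 weeks and fell by 0.87 (SE 0.13, adjusted p = 1.465e-06), but differed by -0.13 at both other times. Rfxap, another RFX subunit, rose by 0.40 at 8 weeks (SE 0.15, adjusted p = 0.02716, a call lost without any 1 of CD mice 5 or 6 or HFD mice 3, 4 or 6) and by 0.66 at 20 weeks (SE 0.15, adjusted p = 0.0003132). Nfya, the NF-Y subunit that reads the CCAAT box, rose by 0.95 at 20 weeks (SE 0.26, adjusted p = 0.002124) and by 1.18 at 34 weeks (SE 0.24, adjusted p = 0.0003442), and Nfyb fell by 0.56 and 0.62 at 8 and 20 weeks (adjusted p = 0.000125 and 1.227e-05). The largest of these differences, 1.18, was below the smallest of the members, 1.47.

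Of 9 tested genes that process antigen and the invariant chain, 7 rose at 8 weeks, 9 at 20 weeks and 9 at 34 weeks, with medians of 0.99, 1.63 and 0.90. The others at 8 weeks were Cd63 with -0.39 (adjusted p = 0.08354) and Ap1m1 with -0.13 (adjusted p = 0.3039). None fell, except that at 8 weeks 2 fell after TMM scaling and in edgeR and 1 after median-of-ratios scaling. Without HFD mouse 3 at 8 weeks 4 rose there. Of all tested genes 29.8%, 38.3% and 27.5% rose at 8, 20 and 34 weeks. Ctss, cathepsin S, which cuts the last piece of the invariant chain, ran from 19.7 to 109.9 CPM in CD mice and from 102 to 532 CPM in HFD mice at 8 weeks and rose by 2.53 (SE 0.57, adjusted p = 0.0007131). It rose by 3.91 at 20 weeks (SE 0.57, adjusted p = 1.018e-06) and by 1.66 at 34 weeks (SE 0.53, adjusted p = 0.01194). Ifi30, the thiol reductase of the endosome, rose by 1.59, 2.88 and 1.75 (adjusted p = 0.006007, 4.221e-06 and 0.001842), and Lgmn, the endosomal protease legumain, by 1.32, 2.65 and 1.35 (adjusted p = 0.02415, 1.953e-05 and 0.01441). March1, a ubiquitin ligase that removes class II from the surface, rose by 1.19, 1.02 and 0.92 (adjusted p = 0.013, 0.02467 and 0.03873). Many of these proteases serve the lysosome of macrophages in general, and with the macrophage covariate described below the counts were 2, 6 and 2. That fit called 3757, 3571 and 1445 of all 10343 tested genes in either direction at 8, 20 and 34 weeks.

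The interferon gamma pathway moved the other way at the first 2 times. Of 12 tested genes 9 fell and 2 rose with HFD at 8 weeks (15.1% of all tested genes fell) and again at 20 weeks (18.7% fell), with medians of -1.38 and -1.10. Under the 10 alternatives 8 to 9 and 8 to 10 of them fell. The 2 that rose were the receptor chains Ifngr1 (0.71 and 0.72) and Ifngr2 (0.82 and 1.09). Cxcl10, a chemokine induced by interferons, stood between 272 and 409 CPM in CD mice and between 33.4 and 113 CPM in HFD mice at 8 weeks and fell by 2.37 (SE 0.32, adjusted p = 1.706e-06). At 20 weeks it stood between 807 and 2100.0 CPM and between 146 and 308 CPM and fell by 2.44 (SE 0.32, adjusted p = 2.37e-07). Irf1, an interferon-induced activator of the Ciita gene, fell by 1.48 at 8 weeks (SE 0.28, adjusted p = 9.807e-05) and by 0.69 at 20 weeks (SE 0.28, adjusted p = 0.03132), at times when Ciita rose.

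At 34 weeks the interferon genes no longer fell as a group with HFD: 2 rose (Ifngr2 by 0.90 and Jak1 by 0.37), 1 fell (Socs1 by 0.56, where 15.7% of all tested genes fell), and the median was 0.05. Leaving out 1 mouse gave 1 to 2 that rose and 0 to 2 that fell. The diet difference of this list changed between 8 and 34 weeks, with 8 of 12 interactions called higher and 1 lower, beside 13% and 15.9% of all tested genes. Cxcl10 was among the former by 1.80 (SE 0.43, adjusted p = 0.002439) and Irf1 by 1.77 (SE 0.38, adjusted p = 0.0007757). On CD between 20 and 34 weeks 9 of the 12 fell and 2 rose (21.4% of all tested genes fell), while the 3 class II genes named above rose. Cxcl10 had a mean of 1269 CPM in CD mice at 20 weeks and 98.5 CPM at 34 weeks. The deviations of the list from its group means correlated with those of the class II chains at r = 0.159 over the 38 mice.

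For the partners that class II meets on T cells and beside it, 5 of 10 genes were above the filter. Cd40, the receptor for T cell help, rose by 1.14, 2.81 and 1.19 (adjusted p = 0.02679, 1.468e-06 and 0.01453). Icosl, the ICOS ligand, rose by 1.07 and 1.10 at 8 and 20 weeks (adjusted p = 0.009989 and 0.00567). Cd274, which encodes PD-L1, fell by 1.38 and 1.29 at 8 and 20 weeks (adjusted p = 0.0001036 and 8.56e-05) and rose by 0.76 at 34 weeks (adjusted p = 0.01166). Cd86 differed by 1.02, 0.12 and 0.58 and passed at none of the times (adjusted p = 0.05854, 0.8342 and 0.2547). At 8 weeks the number that rose was 1 without any 1 of CD mice 1, 2 or 3 or HFD mice 3, 4 or 6, and at 34 weeks 1 without HFD mouse 3. Cd80 and Cd4 were under the filter, at no more than 5.56 and 3.23 CPM in any mouse.

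**Figure D3:**
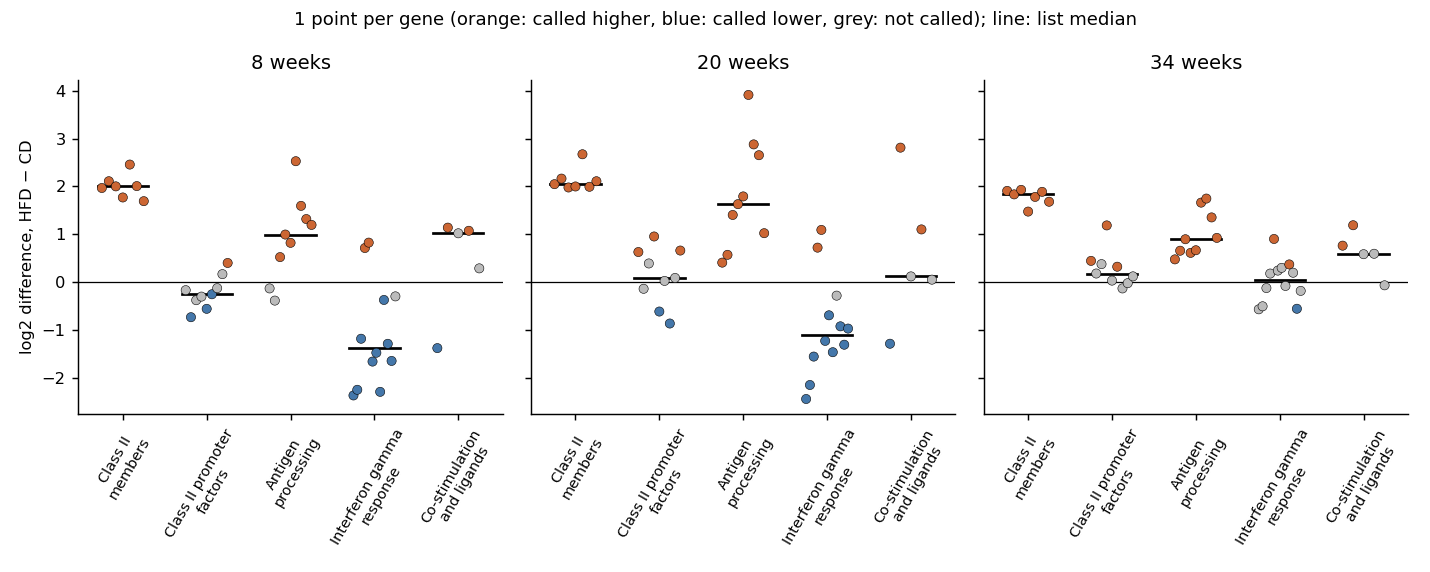
Log2 difference between HFD and CD of each tested gene of the class II members, the promoter factors, antigen processing, the interferon gamma response, and co-stimulation and ligands (x axis). There is 1 panel per time, with 1 point per gene (orange rose, blue fell, grey did not pass) and a line at the median of each list. The members' medians are 2.00, 2.05 and 1.83, and those of the interferon gamma list -1.38, -1.10 and 0.05.

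Several marker lists of cells other than adipocytes also rose with HFD. Among all tested genes 29.8%, 38.3% and 27.5% rose at 8, 20 and 34 weeks, and 15.1%, 18.7% and 15.7% fell. Of 11 macrophage markers 6 rose and 0 fell with HFD at 8 weeks, 8 rose and 1 fell (Cd163) at 20 weeks, and 9 rose and 0 fell at 34 weeks, with medians of 1.497, 2.13 and 1.36. Mertk passed at none of the 3 times. Without CD mouse 3 at 34 weeks 7 rose and 1 fell at that time. Their summed level ranged from 310.2 to 1489.7 CPM in CD and from 1099 to 3086 CPM in HFD mice at 8 weeks. It ranged from 495.5 to 3181 CPM and from 4268 to 8043 CPM at 20 weeks, and from 1206 to 12394 CPM and from 4994 to 15025 CPM at 34 weeks. Each of the 11 had reads in every mouse. Of 6 markers of lipid-associated macrophages 6, 6 and 5 rose at the 3 times, with medians of 2.88, 5.11 and 2.55. The deviations of the macrophage markers from their group means correlated with those of the class II chains at r = 0.823 over the 38 mice. Other lists came close, at r = 0.796 for co-stimulation, 0.791 for dendritic cell markers, 0.778 for antigen processing, 0.709 for B cell markers and 0.654 for lipid-associated macrophage markers. The value was 0.547 for endothelial, 0.403 for T cell, -0.132 for mesothelial and -0.449 for adipocyte markers.

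When the mean macrophage level of each mouse was added to the fit as a covariate, the members' differences shrank. At 8 weeks 7 of 7 still passed (3757 of all 10343 tested genes called in this fit), from 0.87 for Ciita (adjusted p = 0.02504) to 1.48 for H2-DMb1 (adjusted p = 0.002617). At 20 weeks 3 of 7 passed (3571 of all 10343 tested genes called), H2-DMa with 0.77, H2-DMb1 with 1.33 and Ciita with 0.98. The chains and Cd74 then differed by 0.50 to 0.68 (adjusted p between 0.08839 and 0.2013). At 34 weeks 4 of 7 passed (1445 of all 10343 tested genes called), H2-Aa, H2-Eb1, Cd74 and Ciita with 0.79 to 0.88. Since the markers also rose with diet and time, this covariate takes away part of any change that the members share with them. A share of the class II values per cell type was not measured.

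**Figure D4:**
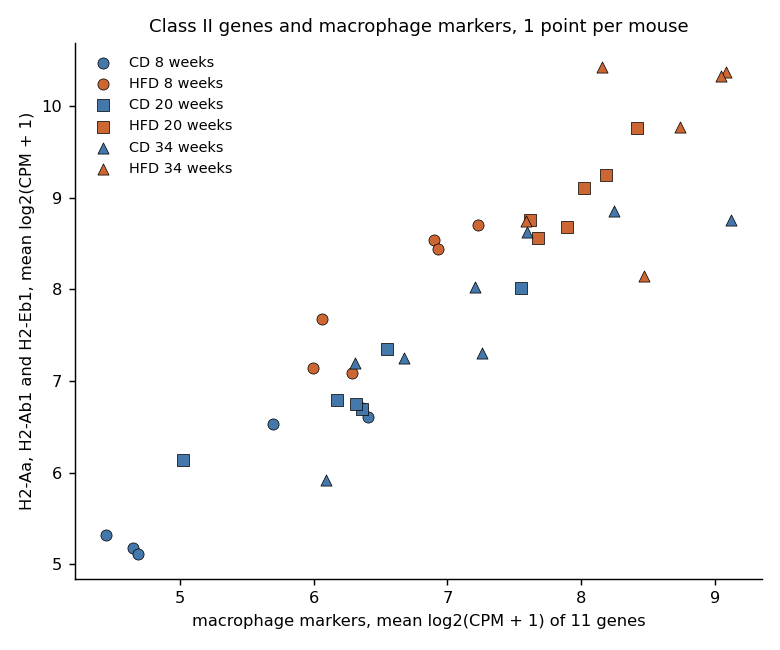
Mean log2(CPM + 1) of H2-Aa, H2-Ab1 and H2-Eb1 (y axis) against the mean log2(CPM + 1) of 11 macrophage markers (x axis), with 1 point per mouse, colour for diet and shape for weeks. Both axes climb with diet and time. With the group means taken away, the correlation over 38 mice is 0.823.

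B cell and T cell markers left few reads, with 1 exception. The defining B cell markers Ms4a1 and Cd79b were at or under 0.575 and 3.56 CPM in every mouse. Of the B cell list only Cd22 passed the filter, and it rose by 2.93 at 20 weeks (SE 0.48, adjusted p = 5.313e-06) and by 1.72 at 34 weeks (SE 0.45, adjusted p = 0.002699). The T cell marker Cd3e was at or under 0.368 CPM, and 0 of 8 T cell markers passed the filter. Dendritic cell markers were uneven. Flt3, Xcr1 and Clec9a were at or under 1.04, 0.407 and 0.942 CPM in every mouse, and Ccr7 at or under 2.69 CPM. Cd209a had a mean of 7.20 CPM in CD mice and 2.05 CPM in HFD mice at 20 weeks, Batf3 reached a mean of 4.89 CPM in HFD mice at 34 weeks, and Ly75 had means of 2.61 CPM in CD and 2.54 CPM in HFD mice at 34 weeks. These 7 were under the filter. Zbtb46, a factor of dendritic cells, had group means between 7.49 and 23.3 CPM and fell by 0.77 at 20 weeks (SE 0.12, adjusted p = 2.929e-06). Sirpa, which macrophages also express, rose by 2.85 and 1.70 at 20 and 34 weeks. The summed level of the 9 dendritic markers rested on Sirpa, which had a mean of 733 CPM in HFD mice at 34 weeks where the sum was 751 CPM.

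Other lists moved too, beside 29.8%, 38.3% and 27.5% of all tested genes that rose at 8, 20 and 34 weeks. The shares that fell were 15.1%, 18.7% and 15.7%. Of 6 endothelial markers 6, 5 and 6 rose with HFD, with medians of 1.48, 1.27 and 1.26, and their summed level ranged from 23.8 to 375 CPM over all mice. Without CD mouse 3 at 20 weeks 3 rose at that time. Of 3 tested mesothelial markers 2, 0 and 0 rose. At 8 weeks 0 rose without any 1 of CD mice 1 or 6 or HFD mouse 5, and 1 without any 1 of CD mice 2 or 5 or HFD mice 1, 3 or 4. Of 8 adipocyte markers 1 rose and 1 fell at 8 weeks, 1 rose and 5 fell at 20 weeks, and 0 rose and 7 fell at 34 weeks, the riser being Lep and the medians -0.21, -0.61 and -0.57. The adipocyte counts at 8 weeks did not exceed the shares of all tested genes, though 2 fell without CD mouse 1 or HFD mouse 2. The part of endothelial cells, mesothelial cells and lost adipocyte RNA in the class II values was not tested.

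The genes whose deviations within groups were most like those of H2-Aa, H2-Ab1 and H2-Eb1, members left out, were Clec4b1 (r = 0.877), Cd83 (r = 0.865), Ly86 (r = 0.863), Prcp (r = 0.863) and Slamf9 (r = 0.860), each over 38 mice. Cd83, a surface protein of activated antigen-presenting cells, ranged from 6.79 to 40.2 CPM in CD and from 44.7 to 172 CPM in HFD mice at 8 weeks, and from 27.0 to 172 CPM and from 431 to 945 CPM at 20 weeks. It rose by 2.26, 3.37 and 2.10 at the 3 times (adjusted p = 0.000919, 2.39e-06 and 0.001066). Clec4b1, a C-type lectin, rose by 1.45, 2.31 and 2.01 (adjusted p = 0.006872, 3.081e-05 and 0.0002907). Ly86, which encodes MD-1, rose by 1.41, 2.47 and 1.60 (adjusted p = 0.01922, 7.08e-05 and 0.005672), Prcp, a lysosomal carboxypeptidase, by 1.61, 2.15 and 1.41 (adjusted p = 0.00147, 2.297e-05 and 0.002684), and Slamf9, a receptor of the SLAM family, by 1.49, 2.66 and 2.36 (adjusted p = 0.006006, 4.859e-06 and 6.354e-05). Each of these correlations was below those of Cd74 and H2-DMa with the same chains, and above those of H2-DMb1 and Ciita.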

How the data were processed

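Per the submitters' processing notes and the methods, reads went through STAR alignment (2.5 or 2.5.2b) to GRCm38, exon counts with featureCounts (Subread 1.5.1), and edgeR and limma downstream. The authors merged the 3 technical replicates of each mouse (114 samples in the labels) and deposited CPM. Each column adds up to 1000000, as it would before any TMM scaling, and 100% of values were whole reads within 0.1 read. 0 other columns of sample values were set aside. Columns were matched to groups by name, and p-values measure the spread between mice. limma 3.58.1 in R 4.3.3 (mean-variance trend, two-sided, pseudocount 1, 32 residual degrees of freedom, threshold 0.05) was checked on simulated data. Alternatives were a pseudocount of 0.5, no filter, TMM and median-of-ratios factors (DESeq2 1.42.0), edgeR 4.0.16 on recovered reads, no trend, each time alone, mouse weights, a macrophage covariate, a mouse-number block, and each of 38 mice left out. All 8 members were named. The other genes came from lists, and the 5 most alike by Pearson's r of deviations. Members and lists were chosen with earlier results of these data known. Motif letters were searched in RefSeq promoter windows.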

Additional observations from a re-analysis of the deposited data

Results flagged for a closer look

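In 1 of 42 sets of values (7 tested members in 6 groups) a mouse stood apart from its group by Dixon's ratio. H2-DMb1, a beta chain of the peptide exchange factor, stood at 24.6 CPM in CD mouse 1 at 20 weeks. On the log2(CPM + 1) scale the gap to the next mouse was 0.695 of the whole range, past the 95% critical value for a group of 6. Chance gives such a gap in about 1 of 20 sets. That mouse was still below the lowest HFD mouse at 20 weeks, 41.3 CPM.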

How the results depend on the processing

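None of the members' 21 differences between HFD and CD changed sign under an alternative. Of the called rises over time, 4 changed sign with the macrophage covariate: H2-Aa on HFD at 20 against 8 weeks, to -0.07, and H2-Ab1, H2-Eb1 and Cd74 on HFD at 34 against 8 weeks, to -0.05, -0.06 and -0.12. With differences that were not called included, that covariate reversed 6 of 7 on HFD at 20 against 8 weeks. It reversed 3 of 7 on CD at 34 against 20 weeks and 2 of 7 on CD at 20 against 8 weeks. Mouse weights reversed 4 of 7, none of them called, on HFD at 34 against 20 weeks. Leaving out each mouse in turn kept the counts of called members at 7 to 7 in the 3 diet comparisons and in both comparisons of 34 with 8 weeks, and at 0 to 0 in CD at 20 against 8 weeks and in the 3 interactions. The range was 3 to 7 for CD at 34 against 20 weeks, 0 to 4 for HFD at 20 against 8 weeks and 0 to 2 for HFD at 34 against 20 weeks. With the macrophage covariate the count was 3 at 20 weeks and 4 at 34 weeks for HFD against CD (3571 and 1445 of all 10343 tested genes called). It was 1 for CD at 34 against 20 and against 8 weeks (6283 and 5345 called). It was 0 for HFD at 20 and at 34 against 8 weeks (811 and 1844 called). With mouse weights it was 3 for HFD against CD at 34 weeks (4103 of all 10343 genes called), 3 for CD at 20 against 8 weeks (1543 called) and 7 for CD at 34 against 20 weeks (6856 called). It was 4 for HFD at 20 against 8 weeks (6392 called) and 3 for HFD at 34 against 8 weeks (5975 called). It was 2 and 4 for the interactions at 34 against 20 and 8 weeks (3407 and 4106 called). For HFD at 20 against 8 weeks it was 0 without the filter and 1 with edgeR, and for HFD at 34 against 20 weeks 1 with edgeR. The cause was not tested. Depth limits H2-DMb2 above all.

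Mouse numbers are shared between the diets, but the deviations of same-numbered mice correlated at between -0.509 and 0.529, so the numbers were not taken as pairs. With the mouse number as a replicate block the count for HFD at 20 against 8 weeks was 0, and no other count of called members changed.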
